A study of Homo sapiens with 3 samples.

Results

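Forkhead transcription factors were described in H82R cells by their transcript levels. The members were the genes whose symbol is FOX, 1 letter from A to S and a number, with no further suffix. This rule found 44 of the 27574 genes in the count table, and all 44 were analysed. It leaves out the FOXD4-like copies and the antisense RNAs that carry a FOX name. The samples were 3 RNA sequencing libraries, called replicates 1, 2 and 3 here, all labelled H82_R and all given etoposide plus cisplatin as treatment. H82 is an established line of human origin, grown from a small cell lung cancer. The labels do not say what the R stands for, they describe the treated material as a tumour although the source is a cultured line, and they name no untreated or parental sample. The data therefore give levels in 1 group and their spread between libraries, not an effect of the drugs. Since no label ties the replicates to separate cultures, every p-value below rests on the spread between these samples alone, and that spread may be technical.

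Forkhead proteins bind DNA through a winged-helix domain whose recognition helix lies in the major groove. Several of them, the FOXA group above all, can open compacted chromatin, FOXO factors are held in the cytoplasm by AKT when growth factors signal, and FOXM1 drives the genes of mitosis in dividing cells. Small cell lung cancer is a fast-growing neuroendocrine tumour in which proliferation genes and neuronal lineage factors are known to be highly expressed.

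The stretch that codes for the start of the recognition helix is shown for 10 members, because it is what the family shares beyond its name and because it shows how far reads of relatives can be told apart. The 30 bases were found in GENCODE 29 transcripts of 40 of the 44 members. Lower case is the most common base over those 40 members at that position, and capitals mark the bases that differ from it.

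most common base: aactccatccgccacaacctctccctcaac
FOXM1: aactccatccgccacaacctTtccctGCac
FOXD1: aacAGcatccgccacaacctctcGctcaac
FOXC1: aacAGcatccgccacaacctctcGctcaac
FOXA1: aactccatccgccacTCGctGtccTtcaaT
FOXK1: aaTtcTatccgGcacaacctctcTTtGaac
FOXK2: aaTtcAatTcgccacaaTctctcTctGaaT
FOXO3: aactccatccgGcacaacctGtcActGCaT
FOXO1: aaTtcAatTcgTcaTaaTctGtccctACac
FOXJ3: aaTtccatAcgAcaTaaTctGtcATtGaac
FOXP4: aacGccGtGcgccacaacctcAGcctGCac

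FOXM1 differed from the most common bases at 3 positions and FOXJ3 at 9. FOXC1 and FOXD1 had the same 30 bases, as did FOXC2 and FOXL1, yet FOXD1 was well expressed and the other three were not, as given below. Over whole transcripts, 27 of the 44 members shared at least 1 window of 50 bases with another gene, most of them a small share, and 6 shared over 10% of their windows. Of the 50-base windows in FOXD4 transcripts 63.1% also occurred in other genes, here the FOXD4-like copies, and of those in FOXO3 27.8%, in FOXO3B among others. For FOXH1 (31.4%), FOXD1 (14.8%), FOXM1 (13.7%) and FOXK2 (12.4%) the shared windows included some on the opposite strand, in KIFC2, FOXD1-AS1, ITFG2 and WDR45B. Whether the counting used strand is not given in the sources used here, so reads of such pairs cannot be told apart and the counts of these 6 genes are uncertain to that extent.

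The libraries held between 23868201 and 42610181 counts, with replicate 2 the deepest. A count of 0 allows up to 3 counts, which is 0.121, 0.0702 and 0.125 CPM (counts scaled to the size of the library) in replicates 1, 2 and 3, for counting error only. Of 10 small cell and neuroendocrine identity genes, all detected, 9 were called above the median gene (defined below), beside 45.3% of all genes tested. They were led by UCHL1 (143 ± 3.42 CPM per kb of exon), NEUROD1 (112 ± 11.98) and HES6 (62.5 ± 7.60). INSM1 lay below (3.30 ± 0.292 CPM per kb). Of 7 endothelial markers 3 were detected, that is, had 10 counts or more in each library, beside 14612 of the 27574 genes of the table. The endothelial list summed to between 2.05 and 3.004 CPM.

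Of the 44 forkhead genes, 27 are called detected because each library gave them 10 counts or more, 11 had some counts below that mark and 6 had none in any library. Over all genes of the table, 14612 of 27574 were detected. CPM divided by the length of all exons, in kb, was used to set genes beside each other, and the median detected gene stood at 5.55, 5.47 and 5.58 CPM per kb in replicates 1, 2 and 3. By limma's one-sample moderated test against that median gene, 10 of the 27 detected members were above it and 12 below at an adjusted p under 0.05, and 5 were not distinguished. Over all 13539 genes tested, 45.3% were called above and 45.1% below, so forkhead genes were spread over the range of levels much as other detected genes were. The median member lay 0.12 below the median gene on the log2 scale (-0.12). FOXJ3 alone made up 19.1% ± 0.918 (SD, n = 3) of the summed CPM per kb of the 44 members. FOXM1 made up 9.29% ± 0.593 and FOXK2 8.45% ± 0.292.

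**Figure D1:**
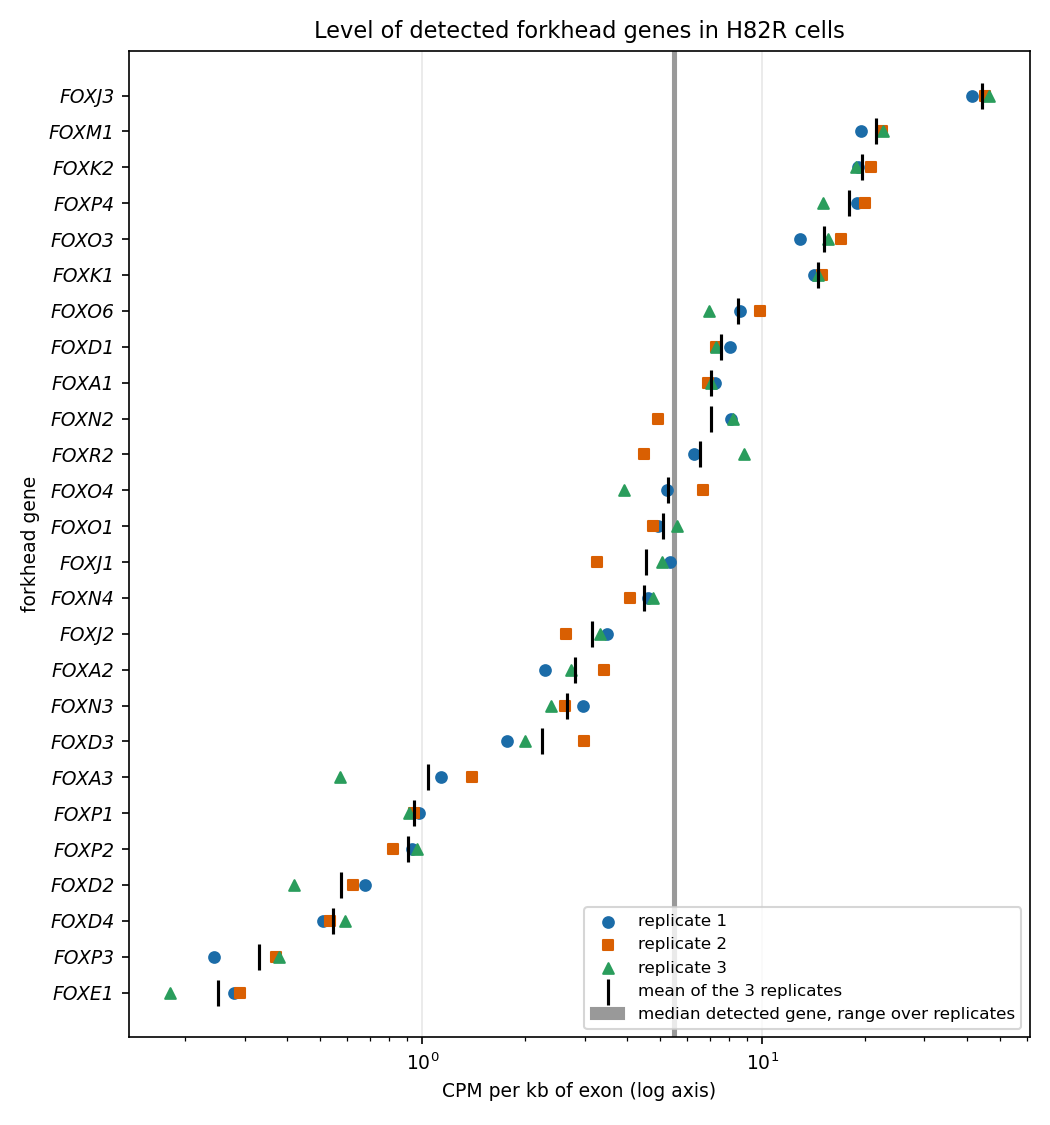
CPM per kb of exon (log axis) of the detected forkhead genes the text names, ordered by their mean. Coloured points are the 3 replicates, black ticks their mean, and the grey band spans the median detected gene over replicates. FOXJ3 stands clear of all others at 41.3 to 46.4, and FOXE1 is lowest at 0.181 to 0.291.

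Positions of genes are those of GENCODE 29 on GRCh38. FOXM1 (chromosome 12, 2857681 to 2877155), the forkhead factor of the last cell cycle phases, reached 95.9, 110.3 and 111 CPM in replicates 1, 2 and 3. It was lowest in replicate 1 and alike in the others. Per kb of exon it stood at 21.6 ± 1.74 CPM (SD, n = 3), 1.96 ± 0.08 (SE) above the median gene on the log2 scale (limma, adjusted p = 5.6e-08). FOXM1 acts with the MuvB complex and MYBL2. Their list of 10 genes also holds E2F1, CDK1, PLK1 and CCNA2, which are not subunits of MuvB. Of the 10, 9 were called above the median gene, beside 45.3% of all genes tested. The MuvB subunits LIN9 (0.52), LIN52 (0.50) and LIN54 (0.31) lay less far above it on the log2 scale than RBBP4 (2.78). MYBL2 (123 ± 6.35 CPM per kb), E2F1 (57.1 ± 4.83) and PLK1 (49.6 ± 3.50) were the highest, and LIN54 (6.94 ± 1.24) was the lowest detected. LIN37, a MuvB subunit, had 9, 27 and 15 counts and was not detected.

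All 15 genes on a list of known FOXM1 targets were called above the median gene, beside 45.3% of all genes tested. The list median was 2.77 above the median gene on the log2 scale. This list, like the others, was chosen with earlier results of these data known. TOP2A, the etoposide target, led with 160.2 ± 27.3 CPM per kb, followed by the anaphase activator CDC20 (88.6 ± 8.73) and the ubiquitin ligase subunit SKP2 (74.2 ± 1.16), and the kinetochore motor CENPE was lowest (13.5 ± 4.803). The named targets that moved most between libraries did not have the order of FOXM1. CENPF, a kinetochore protein, measured 1093, 442 and 1001 CPM, CENPE 163, 76.2 and 143 CPM, and TOP2A 1139, 828 and 1127 CPM. Replicate 2 was lowest for 10 of the 15 targets, against 36.4% of all detected genes, while FOXM1 in replicate 2 was level with replicate 3.

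FOXO factors switch on growth arrest, stress and cell death genes when AKT is inactive. All 4 members of the group were detected. FOXO3 (chromosome 6, 108559835 to 108684774) had 99.6, 131 and 120.4 CPM, lowest in replicate 1 and highest in replicate 2. At 15.2 ± 2.10 CPM per kb it lay 1.44 ± 0.09 (SE) above the median gene (limma, adjusted p = 8.9e-07). FOXO6, the member known mainly from brain, had 20.7, 23.7 and 16.8 CPM and stood at 8.50 ± 1.44 CPM per kb. It was called above the median gene per kb (0.60 ± 0.12 SE on the log2 scale, limma, adjusted p = 0.0014) but below it on CPM with no length (-0.31), and it was not distinguished on the longest transcript.

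FOXO4, with 18.04, 23.0 and 13.5 CPM, and FOXO1, with 30.8, 29.8 and 35.01 CPM, were not distinguished from the median gene (limma, adjusted p = 0.535 and 0.228). On the longest transcript both were called below it (-0.49 and -0.45), and on CPM with no length FOXO4 was below (-0.50) and FOXO1 above (0.34). In counts FOXO1 was 1.71, 1.30 and 2.59 times FOXO4, above it in every library, but per kb the order of this pair changed between libraries. Per kb, FOXO1 was 0.944, 0.717 and 1.43 times FOXO4, so replicate 3 stood opposite to the others. FOXO3 exceeded FOXO1 throughout, with FOXO1 at 0.383, 0.281 and 0.360 times FOXO3 per kb. Its lead over FOXO4 was 2.46, 2.55 and 3.98 times per kb. The FOXO3 count also depends on how reads shared with FOXO3B were assigned.

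Of 18 genes that feed into FOXO, 11 were called above the median gene, 4 below and 3 were not distinguished. Over all genes tested, 45.3% were above and 45.1% below. The 14-3-3 protein genes YWHAZ (104 ± 3.64 CPM per kb) and YWHAB (34.8 ± 3.90), whose products hold FOXO in the cytoplasm, and the exportin gene XPO1 (34.97 ± 5.18) were highest. The kinase gene SGK1 was lowest at 0.498 ± 0.0445 CPM per kb.

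Of 16 FOXO target genes, 6 were above the median gene, 6 below and 4 not distinguished. Over all genes tested, 45.3% were above and 45.1% below, so an even split is not particular to this list. TXNIP, an inhibitor of thioredoxin and glucose uptake, was highest at 30.5 ± 9.06 CPM per kb, ahead of the insulin receptor gene INSR (23.9 ± 3.26) and the CDK inhibitor gene CDKN1B (18.9 ± 1.92). BCL6, a transcriptional repressor, was lowest at 0.174 ± 0.0831 CPM per kb. TXNIP, with 89.9, 148 and 93.3 CPM, and INSR, with 217, 285 and 245 CPM, were highest in replicate 2, as FOXO3 was. Over the list, replicate 2 was the highest library for 8 of the 16 genes and the lowest for 7. These values are a description over 3 libraries and no relation was tested.

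**Figure D2:**
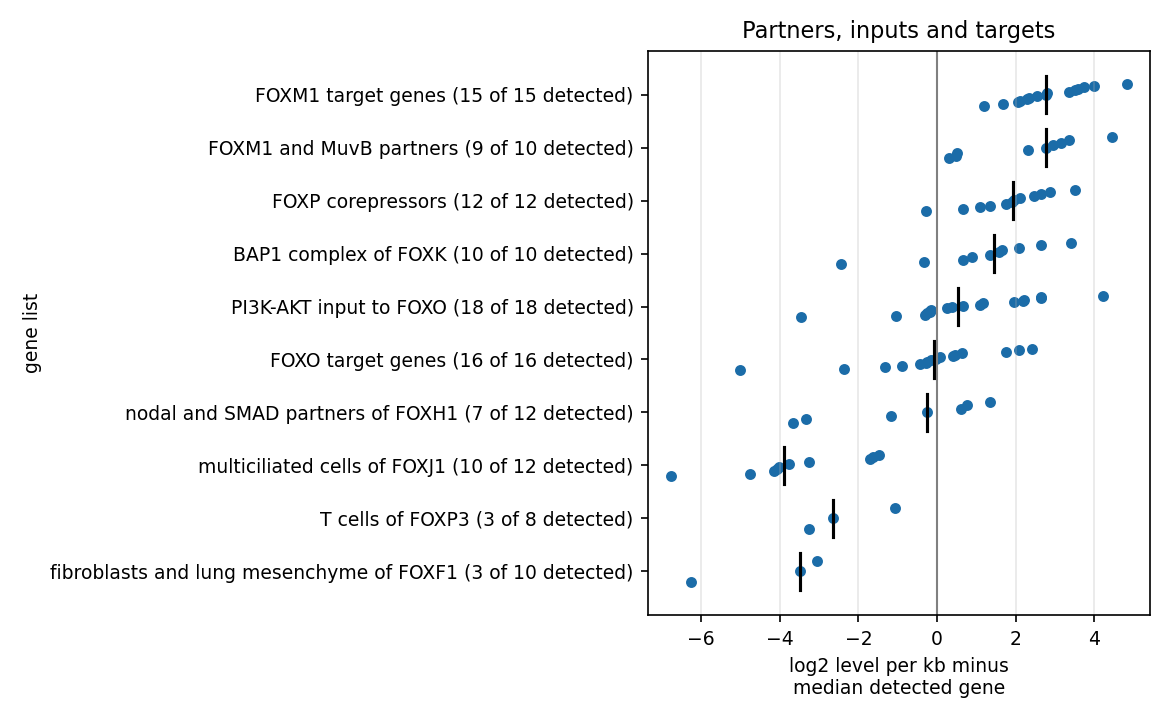
Log2 CPM per kb of exon minus the median detected gene for the detected members of 10 gene lists tied to forkhead factors. Each point is a gene (mean of 3 replicates, spread vertically by rank), black bars are list medians, and the grey line is the median gene. FOXM1 target genes all lie right of the line, FOXO targets lie on both sides, and detected markers of multiciliated cells, T cells and fibroblasts all lie left of it.

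FOXK1 and FOXK2, ubiquitous repressors that bind the BAP1 deubiquitinase and SIN3 complexes, were among the most even members. FOXK1 (chromosome 7, 4682309 to 4771443) had 186, 196 and 191 CPM and FOXK2 (chromosome 17, 82519713 to 82644662) 191, 209 and 189 CPM, so the ranges overlapped. Their counts stood at 0.973 (95% exact binomial interval 0.934 to 1.01), 0.941 (0.913 to 0.969) and 1.01 (0.968 to 1.05) times each other, FOXK1 over FOXK2. Per kb FOXK1 (14.6 ± 0.405) was 0.743 times FOXK2 (19.6 ± 1.08), and 0.459 times when only the longest transcript of each was used for length. Both were called above the median gene (1.39 ± 0.07 and 1.82 ± 0.07 SE on the log2 scale, limma, adjusted p = 1.7e-07 and 5.4e-08). Of 10 genes of the BAP1 and SIN3 complexes 8 were above the median gene and 2 below, beside 45.3% and 45.1% of all genes tested. HCFC1 (59.2 ± 7.797 CPM per kb), OGT (35.1 ± 6.25) and BAP1 itself (23.7 ± 0.797) were highest and MBD5 (1.02 ± 0.0580) was lowest.

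The 4 FOXP genes, repressors with zinc finger and leucine zipper parts for pairing, covered a wide range. FOXP4 (chromosome 6, 41546426 to 41602384), known from lung and gut development, had 118, 124 and 93.0 CPM. Replicate 3 lay below the others, and the gene stood at 18.1 ± 2.63 CPM per kb, 1.69 ± 0.09 (SE) above the median gene (limma, adjusted p = 4.3e-07). FOXP1 had 35.8, 34.6 and 33.5 CPM, among the tightest of all members. Its exons add up to 36.7 kb over 76 annotated transcripts, so its level per kb of all exons was 0.944 ± 0.0311, and per kb of its longest transcript 3.85 ± 0.127. FOXP1 was called below the median gene on both lengths (-2.55 and -0.98 on the log2 scale) and above it on CPM with no length (0.46). FOXP2, the gene linked to speech, had 15.1, 13.3 and 15.6 CPM and was below on both lengths.

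FOXP4 led FOXP1 in counts in every library, since FOXP1 was 0.304, 0.280 and 0.360 times FOXP4. Of 12 genes of the NuRD and CtBP corepressors that FOXP proteins recruit, 11 were above the median gene, beside 45.3% of all genes tested. CHD4 (63.6 ± 2.09 CPM per kb) and MTA2 (34.8 ± 3.11) were among the highest, and GATAD2B (4.598 ± 0.0730) was below.

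FOXP3, the regulatory T cell factor, had 16, 42 and 24 counts and lay 3.99 below the median gene (-3.99 on the log2 scale, limma, adjusted p = 4.2e-07). Among 8 T cell markers, 3 were detected, beside 14612 of the 27574 genes of the table. These were CD3E with 136, 424 and 179 counts, CD4 with 85, 255 and 74, and IKZF2 with 199, 217 and 208. IL2RA and CTLA4 had no count in any library, PTPRC (CD45) had 6, 10 and 7, and the list summed to 17.4, 21.7 and 19.7 CPM. The part of T cells in the FOXP3 counts was not tested.

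FOXJ3 (chromosome 1, 42176539 to 42335877) was the most abundant member. It had 285, 312 and 319.8 CPM, lowest in replicate 1, and at 44.3 ± 2.66 CPM per kb it lay 2.99 ± 0.07 (SE) above the median gene (limma, adjusted p = 3.9e-09), at percentile 94.6 of the tested genes. Its mouse counterpart is known from muscle fibres and male germ cells. Its paralogue FOXJ2 had 22.0, 16.7 and 20.9 CPM and lay below the median gene (-0.82 ± 0.11 SE, limma, adjusted p = 1.2e-04). FOXJ2 counts were 0.0772, 0.0535 and 0.0655 times those of FOXJ3, the widest gap in counts among the paralogue pairs compared here with both genes detected.

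FOXJ1, the master factor of motile cilia, had 14.2, 8.63 and 13.4 CPM and could not be told from the median gene (limma, adjusted p = 0.089), though it was below on the longest transcript (-0.76) and on CPM with no length (-1.09). Replicate 2 was the low library. The genes it works with in multiciliated cells were low. Of 12, 10 were detected and all 10 were below the median gene, beside 45.1% of all genes tested. The ciliogenesis factors RFX3 (2.003 ± 0.170 CPM per kb), MYB (1.81 ± 0.433) and MCIDAS (1.69 ± 0.228) were highest, and the axonemal dynein gene DNAH9 (0.0470 ± 0.000381) was lowest. TEKT1, a tektin of the axoneme, had no count.

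Among the FOXN genes, FOXN2 had 44.4, 27 and 44.9 CPM. Replicate 2 stood apart, and with it the gene was not distinguished from the median gene (limma, adjusted p = 0.065), whereas without it FOXN2 was called above (0.55 on the log2 scale). FOXN3, known as a checkpoint suppressor, had 32.7, 29.04 and 26.4 CPM. Its exons sum to 11.03 kb. It was below the median gene per kb (-1.06) and not distinguished from it on CPM with no length (0.22, limma, adjusted p = 0.051). FOXN2 exceeded FOXN3 in counts by 1.36 times in replicate 1 (95% exact binomial interval 1.24 to 1.49) and 1.70 times in replicate 3 (1.54 to 1.88), while replicate 2 gave 0.930 (0.858 to 1.01). FOXN4, a factor of retinal and spinal interneuron progenitors, had 16.0, 14.1 and 16.5 CPM. It was called below the median gene (-0.31 ± 0.10 SE, limma, adjusted p = 0.022), a call that was lost on leaving out any 1 library (adjusted p from 0.081 to 0.11). FOXN1, the thymus and hair factor, had 3, 7 and 1 counts.

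FOXD1, known from kidney stroma and retina, had 21.1, 19.2 and 19.2 CPM. It was above the median gene per kb (0.45 ± 0.10 SE, limma, adjusted p = 0.0022) and below it on CPM with no length (-0.34). On the longest transcript it was not distinguished. FOXD3, a factor of neural crest and pluripotent cells, had 3.70, 6.25 and 4.17 CPM, highest in replicate 2, and FOXD2 3.18, 2.92 and 1.96 CPM, lowest in replicate 3. Both lay below the median gene (-1.31 and -3.27 on the log2 scale).

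FOXD1 counts were 6.65, 6.55 and 9.77 times those of FOXD2. FOXD4 had 25, 45 and 28 counts, and of its near-identical copies FOXD4L1 had 7, 13 and 5 and the other three with any count up to 4. FOXD2-AS1, the divergent noncoding neighbour of FOXD2, had 7.13, 7.42 and 6.26 CPM. At 2.76 ± 0.240 CPM per kb it was above FOXD2 (0.575 ± 0.138) in every library. FOXE1, the thyroid factor, was the lowest detected member, with 24, 43 and 15 counts.

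FOXA1, FOXA2 and FOXA3 open chromatin in endoderm-derived tissue, among them lung, liver and pancreas. FOXA1 had 28.9, 27.5 and 28.1 CPM, the tightest spread of all detected members (SD 0.04 on the log2 scale). At 7.08 ± 0.177 CPM per kb it was called above the median gene (0.35 ± 0.08 SE, limma, adjusted p = 0.0041), a call that was lost on CPM with no length (adjusted p = 0.091) and with a filter of at least 1 CPM in every library (adjusted p = 0.13). FOXA2 had 5.96, 8.92 and 7.14 CPM and FOXA3 2.50, 3.07 and 1.25 CPM. Both lay below the median gene (-0.98 and -2.47). In counts FOXA1 was 4.85, 3.08 and 3.94 times FOXA2.

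The usual partners of FOXA were nearly absent. Of 12 genes of lung and endoderm lineage, 1 was detected and 11 were not, while 14612 of the 27574 genes of the table were detected. NKX2-1, the lung and thyroid lineage factor, and the lung secretory genes SFTPC and SCGB1A1 had no count in any library. GATA6 had 3, 1 and 0 counts and SOX2 0, 1 and 1.

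FOXR2 (chromosome X, 55623400 to 55625325), an X-linked gene that is normally expressed mainly in testis and is known as an oncogene, had 301, 370 and 408 counts. In CPM this was 12.1, 8.66 and 17.0, so replicate 2 was lowest and replicate 3 highest. It was not distinguished from the median gene per kb (limma, adjusted p = 0.322). Without replicate 2 it was called above (0.43 on the log2 scale), and on CPM with no length below (-1.04). FOXR2 was also called above when every gene with a count was kept. Its relative FOXR1 had 1, 14 and 5 counts, 0.00332 (95% exact binomial interval 8.4e-05 to 0.0187), 0.0378 (0.0205 to 0.0643) and 0.0123 (0.00396 to 0.0288) times those of FOXR2.

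The other 17 members fell below the detection mark. FOXF1 and FOXF2, markers of lung and gut mesenchyme, FOXL1, FOXQ1, FOXB2 and the ionocyte factor FOXI1 had no count in any library. FOXC2 had a single count in replicate 3, FOXE3, FOXI2 and FOXI3 had 2 counts in replicate 2, and FOXS1 had 0, 1 and 1. FOXL2, the ovarian factor, had 3, 3 and 1 counts, FOXB1 7, 14 and 2, and FOXH1, the nodal pathway partner of SMAD2, 3, 13 and 2. FOXC1, a factor of eye and vessel development, came closest to the mark with 18, 21 and 8 counts and would be detected without replicate 3.

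Genes of fibroblasts, lung mesenchyme and ionocytes, cell types linked to these members, were low too. Of 10 fibroblast and lung mesenchyme genes 3 were detected, GLI1 (0.664 ± 0.119 CPM per kb), PDGFRB (0.493 ± 0.121) and COL1A1 (0.0698 ± 0.0304), all below the median gene, and the list summed to between 6.05 and 8.13 CPM. Of 6 ionocyte genes only STAP1 was detected (0.566 ± 0.254 CPM per kb), and CFTR had no count. In the nodal list of FOXH1, 7 of 12 genes were detected, 3 above the median gene, 3 below and 1 not distinguished. Over all genes tested, 45.3% were above and 45.1% below. Those above were the activin receptor genes ACVR2B (14.1 ± 0.998 CPM per kb) and ACVR1B (9.47 ± 0.479) and SMAD4 (8.49 ± 0.490). LEFTY2 (0.439 ± 0.196) was the lowest detected, and SMAD3 had 6, 14 and 4 counts.

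Of the 17 undetected members 7 lie beside another forkhead gene on the genome. On GRCh38, the build named hg38 in the submitters' processing notes, FOXF1, FOXC2 and FOXL1 lie within 71.6 kb of chromosome 16 (86510527 to 86582160) and together held 1 count over the 3 libraries. FOXQ1, FOXF2 and FOXC1 lie within 301.5 kb of chromosome 6 (1312440 to 1613897), where only FOXC1 had counts. The noncoding neighbours FENDRR, beside FOXF1, and FOXCUT, beside FOXC1, had no count and 1 count. The other coding gene of the table within 500 kb of each group, MTHFSD on chromosome 16 and GMDS on chromosome 6, was detected. Another pair, FOXE3 and FOXD2, lies within 24.6 kb of chromosome 1 (47416072 to 47440691), where FOXD2 was detected and FOXE3 was not.

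The sequence at the start site was then compared between detected and undetected members. RefSeq start site windows (250 bases before to 50 after the start, GRCh38.p14) matched 33 of the 44 members, and for genes with several starts the one with most CG dinucleotides was taken. The 250 bases before the start are shown for 4 members that span the pattern: FOXK2 and FOXJ3 as abundant members with many CG, FOXQ1 as a member with many CG and no count, and FOXR2 as an expressed member with nearly none. They run 5′ to 3′ on the gene's strand, with CG in capitals.

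FOXK2 (chr17:82519482-82519731, plus strand): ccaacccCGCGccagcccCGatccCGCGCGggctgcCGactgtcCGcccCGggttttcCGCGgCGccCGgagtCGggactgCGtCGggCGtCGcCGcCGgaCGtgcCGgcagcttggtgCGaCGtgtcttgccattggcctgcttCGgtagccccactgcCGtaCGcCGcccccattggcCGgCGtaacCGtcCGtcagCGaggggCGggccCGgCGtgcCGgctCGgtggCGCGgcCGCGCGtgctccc
FOXJ3 (chr1:42335236-42335485, minus strand): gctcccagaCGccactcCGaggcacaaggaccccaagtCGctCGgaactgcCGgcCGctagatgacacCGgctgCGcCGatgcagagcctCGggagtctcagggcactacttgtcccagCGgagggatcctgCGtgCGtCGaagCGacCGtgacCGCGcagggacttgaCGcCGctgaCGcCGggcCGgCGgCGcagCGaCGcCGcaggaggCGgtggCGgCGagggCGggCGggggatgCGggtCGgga
FOXQ1 (chr6:1311848-1312097, plus strand): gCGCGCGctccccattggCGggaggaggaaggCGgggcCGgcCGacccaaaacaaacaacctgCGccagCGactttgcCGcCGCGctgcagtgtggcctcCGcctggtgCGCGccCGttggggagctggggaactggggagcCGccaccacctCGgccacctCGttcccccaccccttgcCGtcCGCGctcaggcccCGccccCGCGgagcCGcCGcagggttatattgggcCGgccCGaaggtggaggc
FOXR2 (chrX:55623150-55623399, plus strand): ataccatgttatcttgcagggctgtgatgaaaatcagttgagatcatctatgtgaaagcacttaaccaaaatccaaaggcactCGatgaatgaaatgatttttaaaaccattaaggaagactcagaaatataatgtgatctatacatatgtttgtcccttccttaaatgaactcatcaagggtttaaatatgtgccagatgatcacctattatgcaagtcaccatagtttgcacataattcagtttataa

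In the full windows FOXK2 held 55 CG, FOXJ3 41, FOXQ1 35 and FOXR2 1. Over the 22 detected members with a window the median was 32.5 CG (range 1 to 55), and over the 11 that were not detected it was 24 (range 10 to 40). The ranges overlapped widely. Among all genes of the table with a window, the median was 28 for detected and 7 for undetected genes. The undetected members thus carried many CG for genes that were not detected. Undetected does not mean silent here, since FOXC1, with 40 CG, had 18, 21 and 8 counts. The 4 members with a window and no count in any library also had a median of 24 CG. FOXR2 and FOXP2 (3 CG) were the detected members with the fewest.

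The forkhead motif TGTTTAC, on either strand, occurred in the window of 1 of the 33 members, FOXO4, and in 3.26% of all 27305 RefSeq windows. The cell cycle motif TTTGAA, on either strand, occurred in FOXN3, FOXN4 and FOXP3, in 3 of the 22 detected members, 13.6%, beside 8.70% of the windows of all detected genes and 14.8% of all windows. These matches are letters in a window and say nothing of binding.

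**Figure D3:**
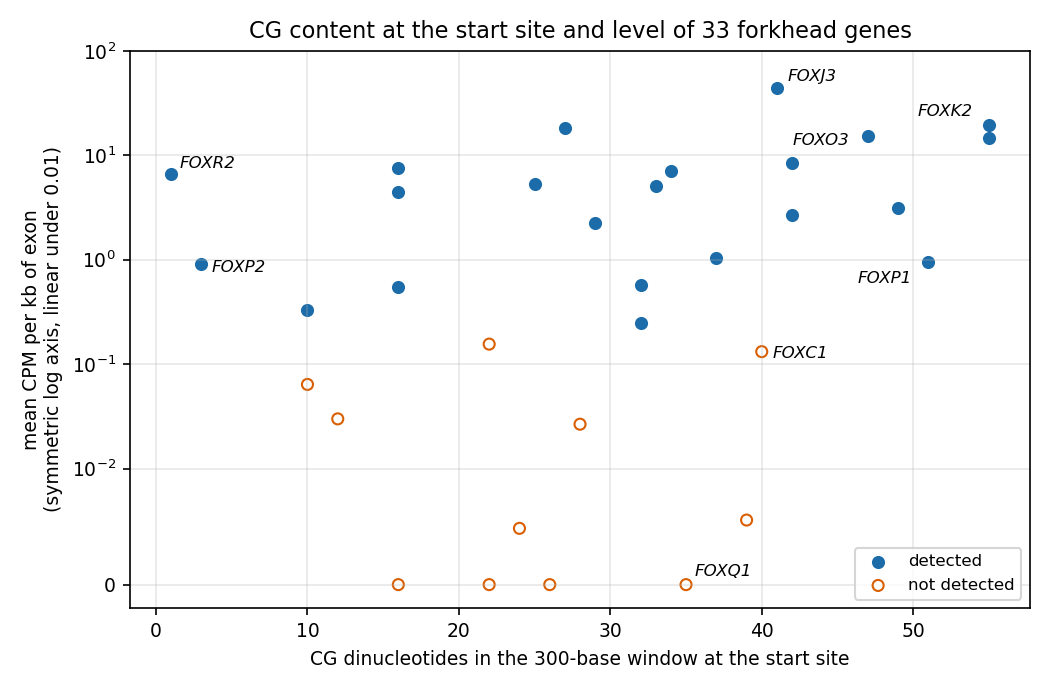
Mean CPM per kb of exon (symmetric log axis, linear under 0.01) against the number of CG dinucleotides in the start site window for 33 forkhead genes. Filled points are detected genes and open points are not. FOXR2 is expressed with 1 CG, and FOXQ1 has no count with 35.

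Counts of 21 of the 27 detected members varied between libraries by more than counting error (chi-square test of homogeneity, adjusted p under 0.05), beside 68.7% of all 14612 detected genes, so this is not particular to the family. The median SD of log2 CPM was 0.20 for the detected members and 0.17 for all detected genes. FOXA1, FOXD1, FOXD4, FOXE1, FOXP1 and FOXP3 did not pass. The library farthest from the other pair was replicate 2 for 10 of the 21, replicate 3 for 7 and replicate 1 for 4. Over all genes past the test it was replicate 2 for 4573 of 10044, a like share, so this too is not particular to the family. FOXN2 (-0.72), FOXJ1 (-0.63) and FOXJ2 (-0.33) were lower in replicate 2 than in the middle library, on the log2 scale, while FOXD3 (0.57) and FOXA2 (0.32) were higher there. FOXA3 (-0.96), FOXD2 (-0.56) and FOXO4 (-0.41) were lowest in replicate 3. Without replicate 2, 11 members passed, beside 39% of all genes. Replicate 2 was also the deepest library, and the part of depth in these differences was not tested.

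**Figure D4:**
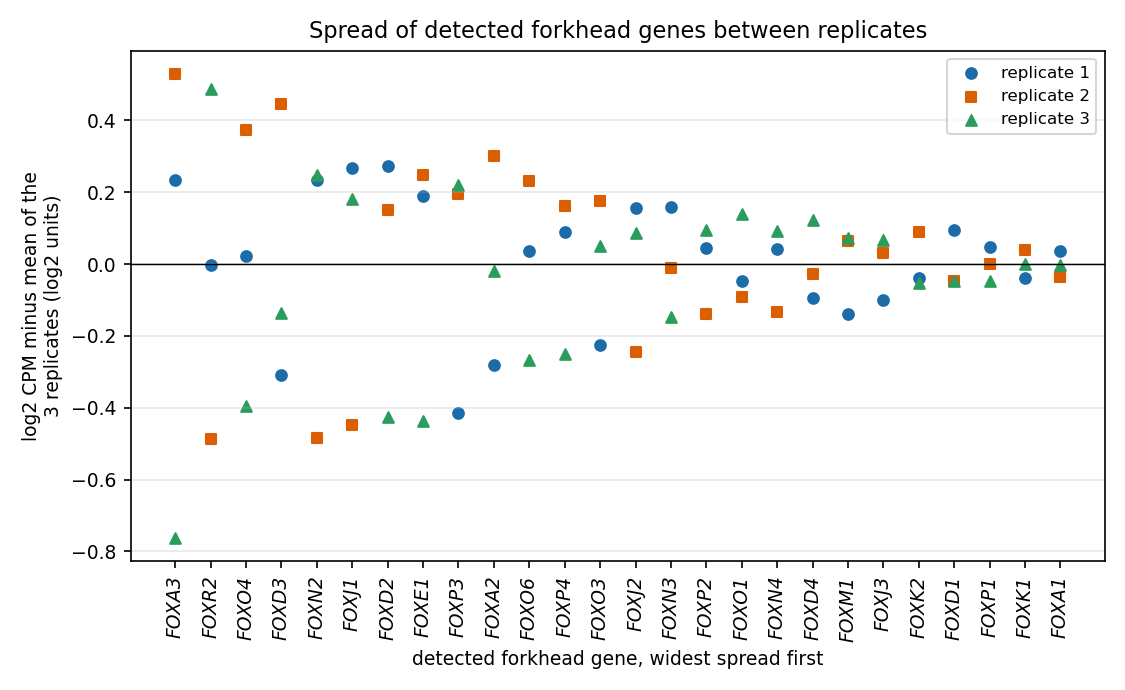
Log2 CPM of each detected forkhead gene the text names in each replicate minus the mean of the 3 replicates, with genes ordered from the widest spread (FOXA3) to the narrowest (FOXA1). Replicate 2 is the low point for FOXN2, FOXJ1, FOXR2 and FOXJ2 and the high point for FOXD3 and FOXA2; replicate 3 is low for FOXA3, FOXO4 and FOXP4.

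Ordered by mean CPM per kb, neighbouring members mostly had ranges over the 3 libraries that overlapped. Such an overlap does not compare genes within a library. FOXM1 was 1.03, 1.08 and 1.20 times FOXK2 per kb in replicates 1, 2 and 3, though their ranges overlapped. On the longest transcript the mean ratio was 0.815. FOXJ3 (41.3 to 46.4) did not overlap with any other member. From FOXM1 through FOXK2, FOXP4 and FOXO3 to FOXK1, each gene overlapped with the next over the 3 libraries, and a gap followed, with FOXK1 at 14.2 to 15.0 and FOXO6 at 6.995 to 9.88. From FOXA1 to FOXN4 each gene again overlapped with the next.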

How the data were processed

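Read counts per gene symbol were deposited by the authors as 1 table with a column for each of 3 libraries, and were not normalized. Per the submitters' processing notes, STAR 2.6.1b and the build hg38 were used, in roles the notes as held here do not state. Not given in the sources used here were the counting program, its annotation and its use of strand. Of 27587 names, 13 had been turned into dates and were left out (0.0665% to 0.0736% of the counts). Effective library sizes were totals times TMM factors (edgeR 4.0.16).

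Exon lengths came from GENCODE 29 on GRCh38, for 92.7% of the 14612 detected genes (at least 10 counts in every library) and for all 44 members. log2 CPM per kb (prior count 2) less the library's own median over detected genes was tested with limma-trend 3.58.1 (R 4.3.3), two-sided, with Benjamini-Hochberg adjustment over 13539 genes. With 1 group, edgeR's and DESeq2's tests have no contrast. Homogeneity of counts was tested by chi-square, adjusted over all detected genes. Both tests were also run on simulated data, whose outcome is not given here. In the homogeneity run unchanged genes had counting error only, so it does not show how the test behaves with more spread between libraries. Ratios have exact (Clopper-Pearson) 95% intervals, for counting error only; without molecular identifiers, reads need not be independent molecules. Ratios are described by these intervals and were given no test.

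By rule, all detected members were to be named, with the 3 highest and the lowest detected gene of each of 16 lists; a few of these are not reported here, though they stay in the counts; other genes were named after their values were seen. Members and lists were chosen with earlier results of these data known. Of the 13 noncoding neighbours 4 and of the 6 forkhead genes outside the name rule 5 were analysed. Start site windows are RefSeq's (GRCh38.p14).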

Additional observations from a re-analysis of the deposited data

How the results depend on the processing

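The 10 forkhead genes above the median gene and 12 below stayed within 1.5 times under limma-voom, protein-coding genes only, plain totals, size factors of DESeq2 1.42.0, a prior count of 0.5, the 1 CPM filter, CPM with no length (10 and 15) and the longest transcript (8 and 15). With any gene that had a count kept, 38 were tested, 16 were above and 18 below, and the median gene fell by 1.02 on the log2 scale. In that setting FOXN4 (0.62), below in the main fit, was called above. So were all 5 genes not distinguished in the main fit, FOXJ1 (0.62), FOXO1 (0.81), FOXN2 (1.24), FOXO4 (0.82) and FOXR2. FOXJ2 (0.10, adjusted p = 0.389), FOXA2 (-0.06, 0.71), FOXD3 (-0.39, 0.063) and FOXN3 (-0.14, 0.187) lost their calls in limma. Of the 27 main calls, 17 stayed the same there. On CPM with no length, FOXP1 (0.46), FOXN2 (0.59) and FOXO1 (0.34) were called above. FOXD1 (-0.34), FOXO6 (-0.31) and FOXJ1 (-1.09) were among those called below, and FOXN3 (0.22) and FOXA1 (0.17) were not distinguished. Again 17 of the 27 main calls stayed the same, so the steady totals hide changes of single genes. Leaving out 1 library gave 10 to 12 genes above, 11 to 12 below, 27 to 28 detected and 11 to 17 past the homogeneity test, with the 11 without replicate 2. At a threshold of 0.01, 17 passed homogeneity. No paired analysis was possible because the labels form 1 group. Counting error limits members under about 10 counts.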
